A study of Mus musculus with 2 samples.

Results

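The genes described here build and load MHC class I, the surface molecule that shows peptides from inside a cell to CD8 T cells and to receptors of natural killer (NK) cells. The 9 genes B2m, H2-K1, H2-D1, Tap1, Tap2, Tapbp, Psmb8, Psmb9 and Nlrc5 were taken by symbol from the 31053 features listed for both libraries, and all 9 were found. They were measured in cells sorted from the lamina propria of the small intestine. The sort took live CD45+ cells that carried CD127 and CD90.2 but neither TCRβ, CD3 nor lineage markers, a surface profile of innate lymphoid cells (ILCs). The KO library held pooled cells of 4 Zfp36-/- mice, which lack the RNA-binding protein tristetraprolin, and the WT library held pooled cells of 4 WT mice, all C57BL/6. Each was read with Chromium Single Cell 3′ v2 chemistry, which counts unique molecular identifiers (UMIs) near the 3′ ends of transcripts. The labels used here give neither age nor sex of the mice and do not say how the Zfp36 allele was made. With 1 library per genotype there is no replicate and no test between genotypes, and every interval below is a 95% interval that covers counting error only.

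A class I molecule is a heavy chain (H2-K1 or H2-D1, the classical heavy chains of this strain) paired with the invariant light chain B2m. The immunoproteasome subunits Psmb8 and Psmb9 take the place of constitutive subunits and change which peptides are cut, the transporter made of Tap1 and Tap2 moves peptides into the endoplasmic reticulum, and tapasin (Tapbp) holds the empty molecule beside the transporter until it is loaded. Nlrc5 is a transactivator of class I genes, and interferons raise the expression of most of the set. Zfp36 encodes tristetraprolin, which binds AU-rich elements in 3′ untranslated regions and promotes decay of the bound messenger RNA.

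Of the 9 genes, 7 lie on mouse chromosome 17, within or beside the MHC (mm10, GENCODE M21). Tapbp spans 33915899 to 33929292 on the plus strand and H2-K1 spans 33996017 to 34000347 on the minus strand. A tight block follows, with Psmb9 at 34181987 to 34187764 on the minus strand, Tap1 at 34187553 to 34197225, Psmb8 at 34197721 to 34201454 and Tap2 at 34203527 to 34216321, the last 3 on the plus strand. H2-D1 lies at 35262730 to 35267499 on the plus strand. B2m is on chromosome 2 (122147686 to 122153083, plus strand) and Nlrc5 on chromosome 8 (94434356 to 94527272, plus strand). All 9 are annotated as protein coding. Psmb9 and Tap1 overlap at their 5′ ends on opposite strands, away from the 3′ ends that this chemistry reads. H2-K1 and H2-D1 have close copies among other class I genes. No window of 90 bases in the last 400 bases of the longest coding transcript of any of the 9 occurs in a transcript of another gene, so in that stretch a read of such a length would tell them apart.

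Promoter windows from 250 bases before to 50 bases after the transcription start were available from RefSeq (GRCm38.p6) for 7 of the 9 genes, all but Tap2 and Nlrc5. The 4 windows below are shown because they belong to the light chain, both heavy chains and the transporter gene whose level differed most often between the libraries. Capitals mark matches, on either strand, to the core of the interferon-stimulated response element (ISRE, 10 letters), to GGGATTCCC (the core of the class I kappa B site) and to CCAAT (the Y box).
B2m, chr2:122147437-122147736, + strand: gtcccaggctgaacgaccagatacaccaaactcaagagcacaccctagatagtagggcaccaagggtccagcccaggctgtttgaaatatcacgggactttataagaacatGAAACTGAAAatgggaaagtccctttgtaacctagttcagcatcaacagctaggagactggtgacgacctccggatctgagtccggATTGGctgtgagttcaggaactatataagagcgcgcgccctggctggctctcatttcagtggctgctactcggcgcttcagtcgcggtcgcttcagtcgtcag
H2-K1, chr17:34000298-34000597, - strand: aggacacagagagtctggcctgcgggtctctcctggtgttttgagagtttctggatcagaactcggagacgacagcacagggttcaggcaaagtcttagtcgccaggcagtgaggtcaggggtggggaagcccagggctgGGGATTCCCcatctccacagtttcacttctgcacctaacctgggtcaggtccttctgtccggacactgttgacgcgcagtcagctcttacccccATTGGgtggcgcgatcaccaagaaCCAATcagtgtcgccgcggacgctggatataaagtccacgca
H2-D1, chr17:35262844-35263143, + strand: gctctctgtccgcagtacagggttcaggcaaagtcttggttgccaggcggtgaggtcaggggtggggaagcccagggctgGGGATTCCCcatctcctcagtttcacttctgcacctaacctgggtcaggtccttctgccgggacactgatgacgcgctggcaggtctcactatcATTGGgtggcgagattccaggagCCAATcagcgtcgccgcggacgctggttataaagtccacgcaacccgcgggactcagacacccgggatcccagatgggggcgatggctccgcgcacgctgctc
Tap1, chr17:34187306-34187605, + strand: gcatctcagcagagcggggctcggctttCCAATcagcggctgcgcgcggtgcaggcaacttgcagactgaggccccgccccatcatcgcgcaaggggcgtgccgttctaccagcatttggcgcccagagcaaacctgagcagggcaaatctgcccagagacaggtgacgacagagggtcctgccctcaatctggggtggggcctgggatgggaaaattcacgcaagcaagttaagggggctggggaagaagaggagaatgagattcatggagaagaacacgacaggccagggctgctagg
The ISRE core occurred in 1 of the 7 genes, B2m, at 139 bases before the start, and in 3.44% of 32851 RefSeq promoter windows. GGGATTCCC occurred in both heavy chain genes, at 110 bases before the start in the H2-K1 window shown and 170 bases before it in H2-D1, and in 0.353% of all windows. CCAAT occurred in 6 of the 7, all but Psmb8, and in 37.4% of all windows. The windows of Tap1 and Psmb9 share 275 bases, since the genes start back to back. A match is a string of letters and not a shown binding site, and a missing match says only that those letters are not in the window.

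The letters TATTTAT, the core of the AU-rich element that tristetraprolin binds, were searched in the longest annotated 3′ untranslated region among the coding transcripts of each gene. Among the 9 genes only Nlrc5 held a match, with 1 site in its region of 1200 bases. That site is shown because it is the single match among the 9, with TATTTAT in capitals.
Nlrc5, chromosome 8, plus strand, GENCODE M21: tttttaagTATTTATaagcacct
Of 21637 genes with an annotated 3′ untranslated region, 26.8% held at least 1 match, and the median region was 922 bases long. The regions of the other members ran from 191 bases in Psmb8 to 1144 bases in Tapbp.

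The files held 3522 barcodes and 27733804 UMIs in the KO library and 3593 barcodes and 24721524 UMIs in the WT library. After filters on genes, mitochondrial share and predicted doublets 3334 KO cells and 3360 WT cells were kept, with a median of 5336.5 UMIs per KO cell and 5292.5 UMIs per WT cell. Zfp36 itself stood at 377 CPM (UMIs of the gene as a share of all UMIs of the cells summed, on the usual CPM scale) in kept KO cells and 634 CPM in kept WT cells, and because these are 3′ tags and the deleted stretch is not given in the labels, this checks the labels only weakly. Of the kept KO cells, 448 (13.4%) carried Y-linked UMIs without Xist (male-type cells), against 0 of the kept WT cells, so the KO pool held cells of at least 1 male. Cells were placed in classes by marker UMIs, with at least 3 of 8 markers of a class and a lead of at least 2 over every other class, which gated 2246 KO cells (67.4%) and 2501 WT cells (74.4%). No class I gene was among the markers. Doublet prediction marked 5 KO barcodes (0.15%) and 37 WT barcodes (1.09%), so in KO it found almost none. Both libraries held 2 barcodes in common.

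The classes were of unequal size. ILC2, which express Gata3 and make type 2 cytokines, numbered 718 in KO and 379 in WT. ILC3, which make interleukin 22, numbered 947 in KO and 729 in WT. Within ILC3, cells with more UMIs of Ccr6, Nrp1, Cd4 and Cxcr5 (CCR6-type) numbered 424 in KO and 354 in WT, cells with more UMIs of Ncr1, Tbx21, Klrk1 and Klrd1 (NCR-type) numbered 365 in KO and 285 in WT, and 158 KO cells and 90 WT cells were tied and belong to neither. ILC1/NK cells numbered 156 in KO and 147 in WT, plasma cells 160 in KO and 110 in WT, dendritic cells 122 in KO and 21 in WT, and macrophages 113 in KO and 44 in WT. T cells numbered 24 in KO and 1057 in WT although surface TCRβ and CD3 had been gated out in the sort. These sizes limit the dendritic cell values through WT and the T cell values through KO. B cells and epithelial cells had fewer than 20 cells in each library and are not described. In every class described, all 8 of its own markers were above 0 in both libraries. T cell markers, summed over 8 genes, stood at 642 CPM in KO ILC2 and 1190 CPM in WT ILC2 (0 of the 8 at 0 in KO and 1 in WT), and at 504 CPM in KO ILC3 and 722 CPM in WT ILC3 (1 at 0 in KO and 0 in WT); their part in the results below was not tested. Plasma and dendritic cells are not part of the sort profile, and their presence is given here as measured.

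Tap1 was the member most often at least 1.5-fold higher in the KO library. A gene was called higher or lower when its CPM differed by at least 1.5-fold, its interval excluded equality and it had at least 50 UMIs over both libraries of the class. By that rule Tap1 was higher in 6 of 9 separate classes (ILC2, the 3 ILC3 subsets, ILC1/NK and plasma cells), and no other member was called in more than 1 of them. The remaining members were called in a few places only, Nlrc5 higher in CCR6-type ILC3, B2m higher in plasma cells and H2-D1 lower in T cells. Tap2, Tapbp, H2-K1, Psmb8 and Psmb9 were called in none of the 9 classes.

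The number of members called was small in each class and is given beside the share of all measured genes. In ILC2, 1 of 9 members was higher, against 16.3% of 8476 measured genes, and 0 were lower, against 2.57%. In ILC3 as a whole 2 of 9 were higher against 13.7% of measured genes and 0 lower against 3.79%, and the 2 were Tap1 and Nlrc5. In CCR6-type ILC3 the same 2 of 9 were higher against 16.6% and 0 lower against 3.98%. In NCR-type ILC3 1 of 9 was higher against 12.7% and 0 lower against 3.22%, and in ILC3 of neither type 1 of 8 measured members was higher against 15.6% and 0 lower against 5.27%. In ILC1/NK cells 1 of 9 was higher against 13.2% and 0 lower against 4.21%, and in plasma cells 2 of 8 measured members were higher against 23.8% and 0 lower against 2.68%. In T cells 0 of 9 were higher against 11.5%, and 1 was lower against 3.63%. In dendritic cells 0 of 9 were higher against 12.7% and 0 lower against 5.48%, and in macrophages 0 were higher against 10.8% and 0 lower against 6.02%. With 0 to 2 members called in each direction, these counts do not set the members apart from all genes, and the description below is of single genes.

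The median log2 ratio of the 9 members (KO over WT) was close to that of all measured genes in most classes. It was 0.25 in ILC2 beside 0.18 for all genes, 0.28 in CCR6-type ILC3 beside 0.18, and 0.07 in NCR-type ILC3 beside 0.13. It was 0.06 in ILC1/NK cells beside 0.12 and 0.32 in plasma cells beside 0.28. In macrophages it was 0.28 beside 0.12, and all but 1 member lay above the median of all genes. The macrophages of the libraries differed in marker levels, with their own 8 markers at 13383 CPM in KO and 25951 CPM in WT, T cell markers at 161 CPM in KO (1 of 8 at 0) and 793 CPM in WT (0 at 0), and ILC2 markers at 518 CPM in KO (0 at 0) and 136 CPM in WT (1 at 0). The part of these markers in the macrophage ratios was not tested. Dendritic cells differed from the other classes in sign, with a median of -0.25 beside 0.16 for all genes and no member above the median of all genes. These dendritic cell values rest on 21 WT cells and depend on the processing. Over 11 alternatives the log2 ratio in dendritic cells ran from -0.02 to 0.43 for B2m and from -0.01 to 0.34 for H2-K1. Since all genes leaned above 0 in every class, small positive ratios of single members are not set apart from the bulk of genes. Summed over the 9 genes, the level was 11690 CPM in KO ILC2 and 10802.5 CPM in WT ILC2, 10350 and 8408 CPM in KO and WT CCR6-type ILC3, and 9925 and 10084.5 CPM in KO and WT NCR-type ILC3.

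**Figure D1:**
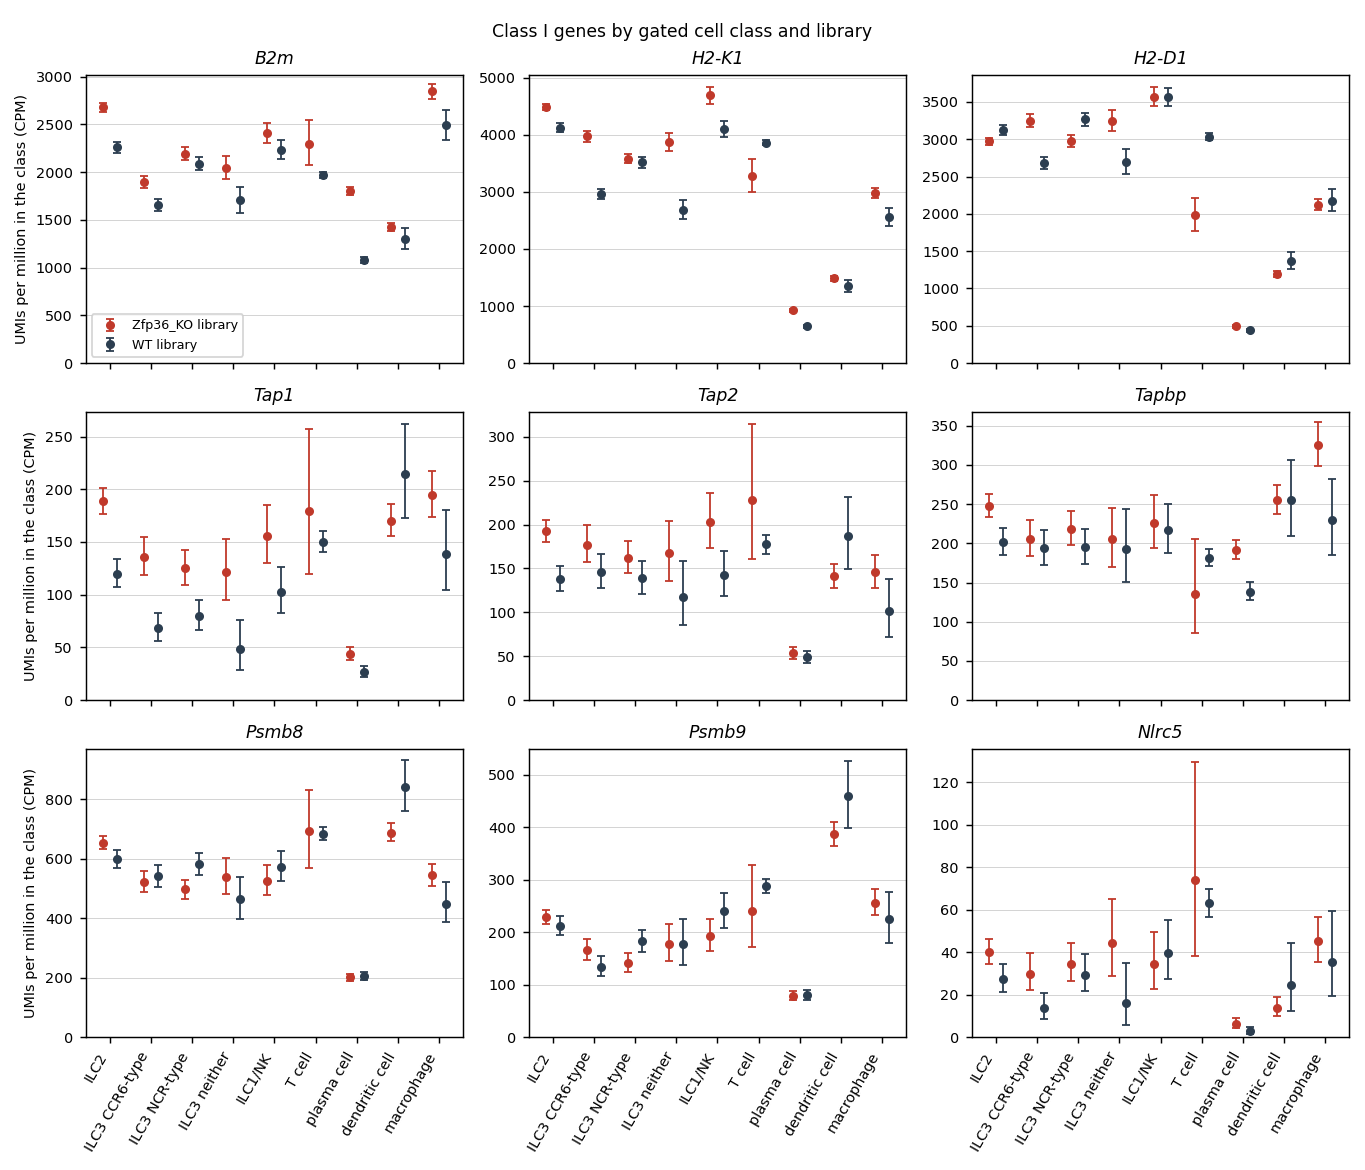
Level of each of the 9 class I genes in CPM (vertical axis, each panel with its own range from 0) in 9 gated cell classes, for the KO library (red) and the WT library (dark blue), with exact Poisson 95% intervals that cover counting error only. Tap1 stands higher in KO than in WT in ILC2 and all ILC3 subsets, and both heavy chains stand lowest in plasma cells, where immunoglobulin transcripts take most UMIs.

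B2m, the light chain, differed little. It stood at 2678 CPM in KO ILC2 and 2258 CPM in WT ILC2 (log2 ratio 0.25, interval 0.20 to 0.29). In CCR6-type ILC3 it was 1895 CPM in KO and 1655 CPM in WT (0.20, interval 0.12 to 0.27), and in NCR-type ILC3 2189 CPM in KO and 2090 CPM in WT (0.07, interval 0.00 to 0.13). The log2 ratio lay above 0 in all 9 classes, with all 9 intervals above 0, between 0.07 and 0.74, yet in 8 of them it stayed under 1.5-fold. The classes come from the same pair of libraries, and the share of all genes with such intervals was not counted. Relative to the median of all measured genes, the ratio of B2m turned slightly negative in NCR-type ILC3, ILC1/NK cells and dendritic cells.

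Plasma cells were the exception for B2m, at 1802 CPM in KO and 1079 CPM in WT (1.67-fold, log2 ratio 0.74, interval 0.69 to 0.79). Immunoglobulin genes made up 68.2% of plasma cell UMIs in KO and 72.4% in WT, and that share sets the level of every other gene in these cells. With immunoglobulin genes left out of the totals B2m stood at 5665 CPM in KO plasma cells and 3907 CPM in WT plasma cells, under 1.5-fold, and no member was called. Tapbp, at 192 CPM in KO and 139 CPM in WT, and H2-K1, at 926 CPM in KO and 648 CPM in WT, lay in the same direction in plasma cells without being called. Psmb8, at 201 CPM in KO and 205 CPM in WT, and Psmb9, at 79.6 CPM in KO and 80.2 CPM in WT, were level there.

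The heavy chain H2-K1 had unlike ratios in the ILC3 subsets. In CCR6-type ILC3 it stood at 3972 CPM in KO and 2969 CPM in WT (log2 ratio 0.42, interval 0.36 to 0.47), and in ILC3 of neither type at 3871 CPM in KO and 2683 CPM in WT (0.53, interval 0.42 to 0.64). In NCR-type ILC3 it was 3584 CPM in KO and 3520 CPM in WT (0.03, interval -0.03 to 0.08). All 3 ratios lie under the 1.5-fold threshold, and the difference between them was not tested. In ILC2 H2-K1 was 4488 CPM in KO and 4122 CPM in WT (0.12, interval 0.09 to 0.16), and in T cells it was 3279 CPM in KO and 3865 CPM in WT (-0.24, interval -0.36 to -0.11).

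H2-D1, the other heavy chain, leaned lower than H2-K1 in every class. It stood at 2972 CPM in KO ILC2 and 3125 CPM in WT ILC2 (log2 ratio -0.07, interval -0.11 to -0.03). In CCR6-type ILC3 it was 3246 CPM in KO and 2685 CPM in WT (0.27, interval 0.21 to 0.33), and in NCR-type ILC3 2972 CPM in KO and 3266 CPM in WT (-0.14, interval -0.19 to -0.08). In dendritic cells it was 1190 CPM in KO and 1372 CPM in WT (-0.21, interval -0.33 to -0.08). The single call was in T cells, at 1982 CPM in the 24 KO cells and 3034 CPM in the 1057 WT cells (-0.61, interval -0.78 to -0.45), and it rests on few KO cells. The gated T cells also differed in marker levels. Their T cell markers stood at 4854 CPM in KO and 6521 CPM in WT, and ILC1/NK markers at 4631 CPM in KO and 3146 CPM in WT. The part of this in the T cell ratios was not tested.

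The balance of the heavy chains differed between the libraries in the same direction in all 9 classes. Of the UMIs of H2-K1 and H2-D1 together, H2-K1 took 60.2% in KO ILC2 (exact binomial interval 59.6% to 60.7%) and 56.9% in WT ILC2 (56.2% to 57.6%). It took 55.0% in KO and 52.5% in WT CCR6-type ILC3, and 54.7% in KO and 51.9% in WT NCR-type ILC3. In plasma cells the share was 65.2% in KO and 59.6% in WT, in dendritic cells 55.6% in KO and 49.6% in WT, and in macrophages 58.4% in KO and 54.1% in WT. The KO share exceeded the WT share by 2.52 to 6.30 percentage points, and the intervals did not overlap in 9 of 9 classes. All classes come from the same pair of libraries, and how often shares of other gene pairs lie apart was not counted. A share within cells does not depend on library totals or on immunoglobulin. Among female-type cells alone (Xist without Y-linked UMIs) the intervals were also apart in 9 of 9 classes, and with classes taken from graph clusters in 8 of 9. Among male-type KO cells the H2-K1 share was 60.9% in ILC2 and 55.1% in CCR6-type ILC3, close to the female-type KO shares of 60.1% and 55.0%. In NCR-type ILC3 it was 50.6% in male-type KO cells (interval 48.2% to 53.1%), against 54.8% in female-type KO cells and 52.0% in female-type WT cells, so in this subset the male-type KO cells lay on the WT side. In dendritic cells the H2-K1 share was 58.4% (55.8% to 60.8%) in male-type and 54.7% (53.4% to 56.0%) in female-type KO cells. Cells of different KO mice thus also differed in this share.

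Tap1, a subunit of the peptide transporter, stood at 189 CPM in KO ILC2 and 120 CPM in WT ILC2 (log2 ratio 0.65, interval 0.47 to 0.84), from 890 UMIs in KO and 314 in WT. In CCR6-type ILC3 it was 136 CPM in KO and 68.5 CPM in WT (0.99, interval 0.64 to 1.34), and in NCR-type ILC3 125 CPM in KO and 80.1 CPM in WT (0.65, interval 0.32 to 0.97). These intervals all lie above 0, and those of the 2 ILC3 subsets overlap. In ILC3 of neither type Tap1 was 121 CPM in KO and 48.3 CPM in WT (1.33, interval 0.57 to 2.16), the widest interval since WT held 18 UMIs. In ILC1/NK cells it was 156 CPM in KO and 103 CPM in WT (0.60, interval 0.20 to 1.003), and in plasma cells 44.1 CPM in KO and 27.0 CPM in WT (0.71, interval 0.37 to 1.05). Leaving immunoglobulin genes out of the totals, chosen after seeing the data, gave a plasma cell ratio of 0.50, under the threshold. Relative to the median of all measured genes of the class, the log2 ratio of Tap1 was 0.81 in CCR6-type ILC3 and 1.16 in ILC3 of neither type, still past 1.5-fold, but 0.48 in ILC2, 0.51 in NCR-type ILC3, 0.48 in ILC1/NK cells and 0.42 in plasma cells, under it.

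Outside these classes Tap1 was not called. In macrophages it was 194 CPM in KO and 139 CPM in WT (log2 ratio 0.48, interval 0.07 to 0.92). In T cells it was 179 CPM in KO and 150 CPM in WT (0.25, interval -0.33 to 0.78). In dendritic cells it pointed the other way, at 170 CPM in KO and 214 CPM in WT (-0.33, interval -0.65 to 0.003), with the WT value resting on 21 cells and 95 UMIs. This direction depended on the gate. With dendritic cells taken from graph clusters (243 in KO and 50 in WT) the log2 ratio of Tap1 was 0.06 (-0.17 to 0.29). The share of cells with a Tap1 UMI moved with the level. After thinning each cell to 2000 UMIs it was 28.6% of KO ILC2 and 18.6% of WT ILC2, 20.7% of KO and 13.0% of WT CCR6-type ILC3, and 19.4% of KO and 13.5% of WT NCR-type ILC3. Without thinning the shares were 65.7% and 49.6% in KO and WT ILC2. Since nucleated cells of every class can express Tap1, no class served as a gauge of free RNA in the droplets.

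Tap2, the partner subunit, lay on the same side of 0 as Tap1 in all 9 classes, by smaller ratios in ILC2 and in every ILC3 subset. It stood at 193 CPM in KO ILC2 and 138 CPM in WT ILC2 (log2 ratio 0.48, interval 0.30 to 0.66), and in ILC1/NK cells at 203 CPM in KO and 143 CPM in WT (0.51, interval 0.16 to 0.85). In CCR6-type ILC3 it was 177 CPM in KO and 146 CPM in WT (0.28, interval 0.02 to 0.54), an interval that lies below that of Tap1 in the same cells. In dendritic cells it was 141 CPM in KO and 187 CPM in WT (-0.41, interval -0.75 to -0.05), and in macrophages 146 CPM in KO and 101 CPM in WT (0.53, interval 0.04 to 1.05).

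Tapbp, which encodes tapasin, was nearly level in ILCs. It stood at 248 CPM in KO ILC2 and 202 CPM in WT ILC2 (log2 ratio 0.30, interval 0.15 to 0.45), at 206 CPM in KO and 194 CPM in WT CCR6-type ILC3 (0.09, interval -0.14 to 0.32) and at 226 CPM in KO and 217 CPM in WT ILC1/NK cells (0.06, interval -0.24 to 0.36). In macrophages it was 325 CPM in KO and 230 CPM in WT (0.50, interval 0.18 to 0.84). Dendritic cells held 255 CPM in both libraries.

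The immunoproteasome subunits did not follow Tap1, although Psmb9 shares its promoter region and Psmb8 is its neighbour. Psmb8 stood at 654 CPM in KO ILC2 and 598 CPM in WT ILC2 (log2 ratio 0.13, interval 0.04 to 0.22), and at 522 CPM in KO and 541 CPM in WT CCR6-type ILC3 (-0.05, interval -0.19 to 0.09). In NCR-type ILC3 it was 497 CPM in KO and 581 CPM in WT (-0.23, interval -0.36 to -0.09), and in dendritic cells 688 CPM in KO and 843 CPM in WT (-0.29, interval -0.45 to -0.13). The interval of Psmb8 lay below that of Tap1 in ILC2 and in CCR6-type and NCR-type ILC3. Psmb9 was 166 CPM in KO and 135 CPM in WT CCR6-type ILC3 (0.31, interval 0.04 to 0.58) and 142 CPM in KO and 183 CPM in WT NCR-type ILC3 (-0.37, interval -0.62 to -0.12). In ILC1/NK cells Psmb9 was 193 CPM in KO and 240 CPM in WT (-0.32, interval -0.62 to -0.01). None of these passed 1.5-fold.

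Nlrc5, the transactivator, had the fewest UMIs of the set and the widest intervals in ILC2 and ILC3. In ILC3 as a whole it stood at 34.3 CPM in KO and 20.98 CPM in WT (log2 ratio 0.71, interval 0.29 to 1.14), and in CCR6-type ILC3 at 30.04 CPM in KO and 13.6 CPM in WT (1.15, interval 0.38 to 1.96), from 48 UMIs in KO and 21 in WT. In NCR-type ILC3 it was 34.7 CPM in KO and 29.5 CPM in WT (0.24, interval -0.33 to 0.81). The intervals of the CCR6-type and NCR-type cells overlap and the difference between them was not tested, and at a minimum of 200 UMIs the CCR6-type subset is not measured for Nlrc5. In ILC2 it was 40.1 CPM in KO and 27.5 CPM in WT (0.54, interval 0.14 to 0.96), just under the threshold, and in dendritic cells 14.0 CPM in KO and 24.8 CPM in WT (-0.83, interval -1.81 to 0.28). Within KO ILC2, Nlrc5 stood at 61.1 CPM in male-type and 36.1 CPM in female-type cells (0.76, interval 0.23 to 1.26). Female-type cells alone gave KO over WT log2 ratios of 0.39 (-0.04 to 0.82) in ILC2 and 1.13 (0.32 to 1.98) in CCR6-type ILC3. Plasma cells held 30 and 12 Nlrc5 UMIs in KO and WT, and ILC3 of neither type 26 and 6, too few to be measured.

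**Figure D2:**
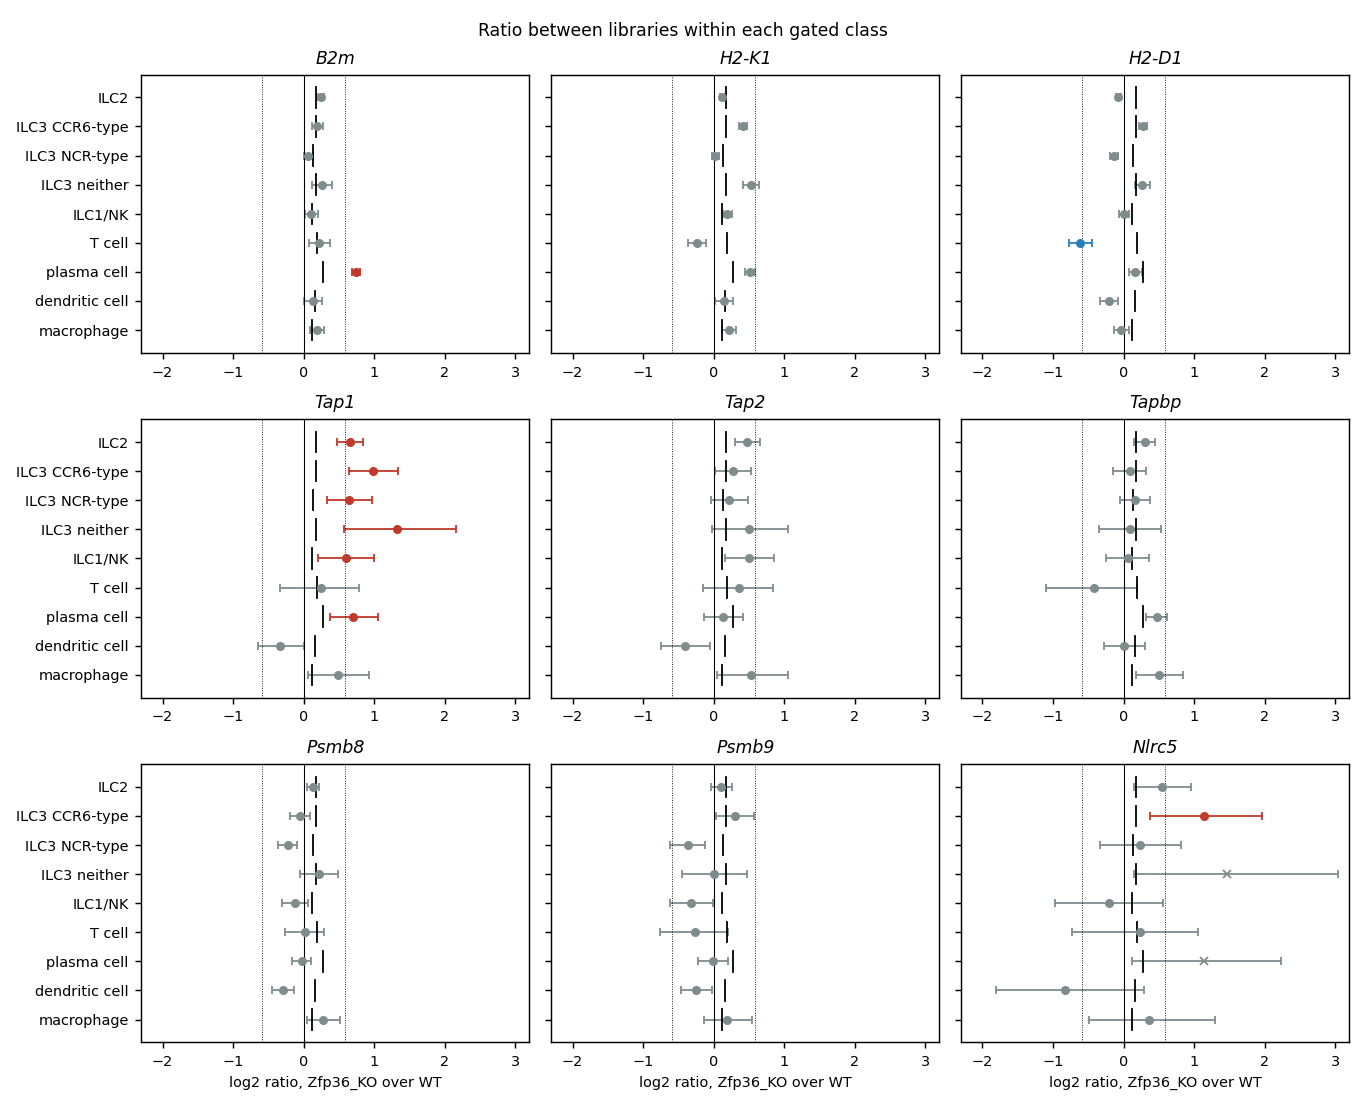
Log2 ratio of KO over WT (horizontal axis) of each of the 9 genes in 9 gated cell classes, with exact 95% intervals from the split of UMIs that cover counting error only. Red and blue points were called higher and lower in KO, crosses have fewer than 50 UMIs, dotted lines mark 1.5-fold and short black bars mark the median of all measured genes in the class, and Tap1 lies right of those bars in all classes but dendritic cells.

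The heavy chains had the same classes at both ends of the order in both libraries, while the classes between changed places. H2-K1 was highest in ILC1/NK cells and ILC2, at 4695 and 4488 CPM in KO and 4101 and 4122 CPM in WT, and the intervals of these neighbours overlapped in both libraries. It was lowest in plasma cells, followed by dendritic cells at 1490 CPM in KO and 1349 CPM in WT. H2-D1 was also highest in ILC1/NK cells, at 3571 CPM in KO and 3566 CPM in WT, and lowest in plasma cells and then dendritic cells. For H2-D1 ILC3 of neither type stood at place 2 in KO and place 5 in WT, and T cells at place 7 in KO and place 4 in WT. Dendritic cells, which present peptides to T cells, held the most Psmb9, at 387 CPM in KO and 460 CPM in WT, above every other class in both libraries. Nlrc5 was highest in T cells, at 74.1 CPM in KO and 63.0 CPM in WT, although in KO its interval, from 24 cells, overlapped those of macrophages, ILC2, ILC1/NK cells and the 3 ILC3 subsets. Plasma cells were lowest for most members, and for B2m in WT only. These places depend on the totals that immunoglobulin genes share. With immunoglobulin genes left out of the totals, B2m of plasma cells was above that of all other classes in both libraries. The place of plasma cells on that scale is not described here for the other members.

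The order of the ILC3 subsets was not the same in both libraries. In WT, NCR-type cells exceeded CCR6-type cells in H2-K1 by 0.25 on the log2 scale (interval 0.19 to 0.30), in H2-D1 by 0.28 (0.22 to 0.34) and in Psmb9 by 0.44 (0.18 to 0.71). In KO, the log2 ratio of NCR-type over CCR6-type cells was -0.15 for H2-K1 (-0.20 to -0.10), -0.13 for H2-D1 (-0.18 to -0.07) and -0.23 for Psmb9 (-0.49 to 0.02). Among female-type KO cells H2-K1 was 3594 CPM in NCR-type and 3799 CPM in CCR6-type cells. Among male-type KO cells it was 3278 and 4594 CPM, a wider gap. B2m was higher in NCR-type cells in both libraries, by 0.21 in KO and 0.34 in WT. ILC2 exceeded ILC3 in Tap1 in both libraries, by 0.55 in KO (0.39 to 0.71) and 0.74 in WT (0.50 to 0.99).

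The KO pool gave a view of the spread between its mice, because male-type and female-type cells must come from different animals, which then also differ in sex. Tap1 stood at 240 CPM in male-type KO ILC2 (119 cells), 177 CPM in female-type KO ILC2 (565 cells) and 120 CPM in female-type WT ILC2 (377 cells). Within KO, the log2 ratio of male-type over female-type cells was 0.44 (interval 0.19 to 0.68) in ILC2, 0.64 (0.11 to 1.15) in CCR6-type and 0.72 (0.21 to 1.21) in NCR-type ILC3. Cells of different KO mice thus differed in Tap1 by amounts close to the ratios between the libraries. Female-type cells alone gave KO over WT log2 ratios of 0.56 (0.36 to 0.76) in ILC2, 0.82 (0.45 to 1.19) in CCR6-type and 0.44 (0.10 to 0.80) in NCR-type ILC3, all above 0, with ILC2 and NCR-type cells under 1.5-fold. H2-K1 went the other way in NCR-type ILC3, where the log2 ratio of male-type over female-type KO cells was -0.13 (-0.24 to -0.03). In CCR6-type ILC3 that ratio was 0.30 (0.15 to 0.44) for B2m and 0.27 (0.17 to 0.37) for H2-K1. It was 0.26 (0.15 to 0.37) for H2-D1. For B2m and H2-D1 these values are close to or above the ratios between the libraries in that subset. There 4 of 9 members had such an interval above 0 and 0 below it, and the share over all genes was not counted. How the WT mice spread was not measured, as no WT cell was of male type, and the part of this spread in the differences between libraries was not tested.

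**Figure D3:**
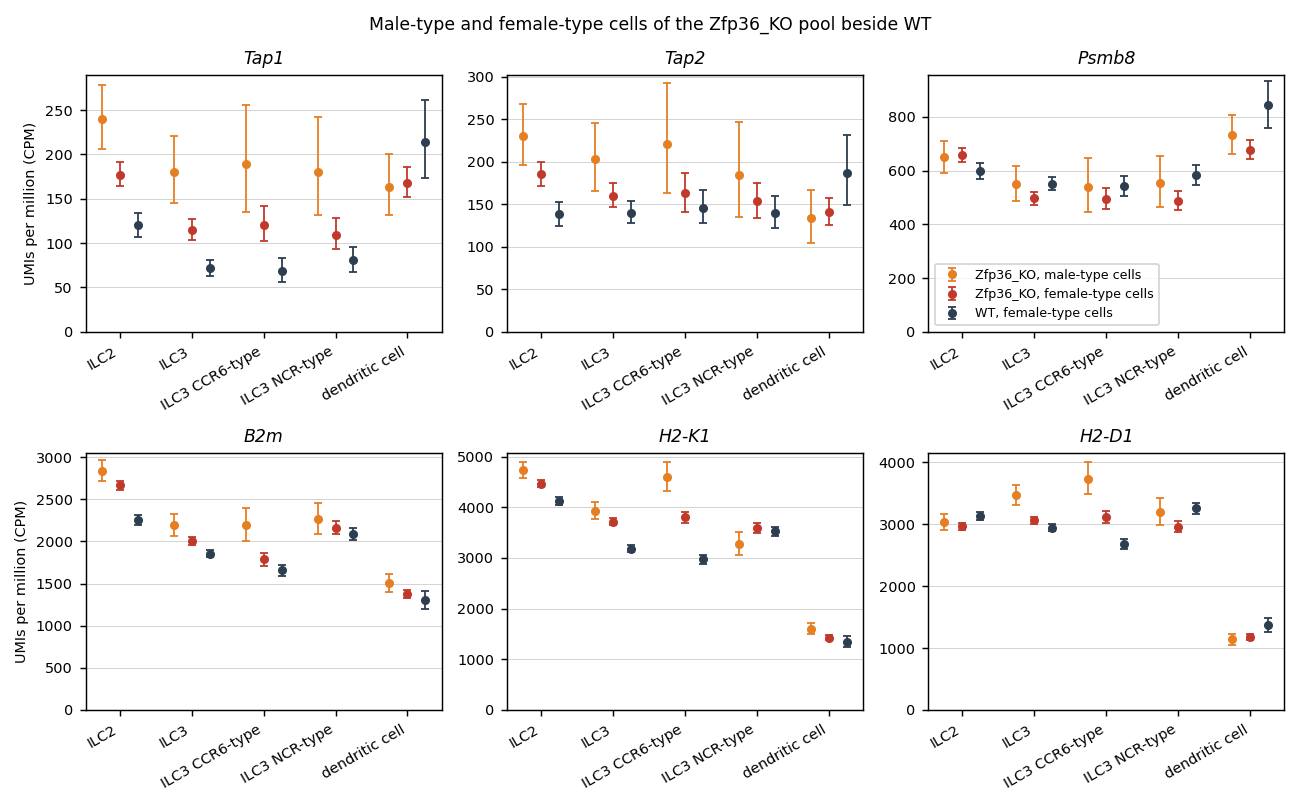
Level in CPM (vertical axis from 0) of 6 class I genes in male-type KO cells (orange), female-type KO cells (red) and female-type WT cells (dark blue) of the classes with at least 20 cells of each kind, with exact Poisson 95% intervals. In ILC2 and in ILC3, Tap1 is highest in male-type KO cells and lowest in WT cells.

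Other genes of the class I route were examined as a list of 30, in 5 groups by role. Counted per class as higher and lower in KO, there were 3 and 0 of 28 measured genes in ILC2, 6 and 2 of 27 in CCR6-type ILC3, 2 and 1 of 25 in NCR-type ILC3 and 4 and 0 of 23 in ILC1/NK cells. There were 4 and 0 of 20 in ILC3 of neither type, 4 and 3 of 27 in T cells, 5 and 1 of 24 in plasma cells, 2 and 1 of 26 in dendritic cells and 1 and 0 of 26 in macrophages. These stand beside the shares of all genes given above for each class. In T cells the 3 lower genes were a larger part of the list than the 3.63% of all genes, with 24 KO cells behind them, and in macrophages the single higher gene was a smaller part than 10.8%. The median log2 ratio of the measured list was 0.06 in ILC2, 0.24 in CCR6-type ILC3 and -0.13 in NCR-type ILC3.

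Irf1, an interferon-responsive regulator of class I genes, was higher in KO in CCR6-type ILC3, at 227 CPM in KO and 101 CPM in WT (log2 ratio 1.17, interval 0.90 to 1.45), and in ILC3 of neither type. In ILC2 it was 138 CPM in KO and 128 CPM in WT (0.11, interval -0.08 to 0.31). Of the 8 regulators listed, 0 were called in ILC2, NCR-type ILC3 and macrophages.

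Of the 5 genes of peptide trimming, folding and loading, Erap1 and Canx held most of the calls. Erap1, the aminopeptidase that trims peptides in the endoplasmic reticulum, was called higher in 7 of 9 classes, at 142 CPM in KO and 57.7 CPM in WT ILC2 (log2 ratio 1.30, interval 1.05 to 1.57) and at 94.4 CPM in KO and 40.6 CPM in WT dendritic cells (1.22, interval 0.53 to 1.99). Canx, encoding the chaperone calnexin, was called higher in 7 of 9, at 242 CPM in KO and 141 CPM in WT ILC2 (0.77, interval 0.60 to 0.95). Pdia3, a disulfide isomerase of the loading complex, was called higher in 4 of 9, and Calr, encoding calreticulin, in 1. Tapbpl, a relative of tapasin, was called higher in 0 of the 9 and lower in 1, NCR-type ILC3. For all genes the share called higher ran from 10.8% in macrophages to 23.8% in plasma cells. Between male-type and female-type KO ILC2, the log2 ratio was 0.12 for Erap1 (interval -0.18 to 0.42) and -0.10 for Canx (-0.35 to 0.14).

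The proteasome groups held few calls. Psmb10, the remaining immunoproteasome subunit, and Psme1 and Psme2, the interferon-responsive activator subunits, were called in no class. The constitutive subunit Psmb6 had 5 of 9 intervals below 0 with no call, for example 109 CPM in KO and 148 CPM in WT ILC2 (log2 ratio -0.45, interval -0.64 to -0.25). How many of all genes had as many intervals below 0 was not counted. Psmb7 was called lower in CCR6-type ILC3 and in dendritic cells, at 89.95 CPM in KO and 151 CPM in WT dendritic cells (-0.75, interval -1.14 to -0.34).

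Among nonclassical class I genes, which present narrower sets of ligands, H2-T23 had an interval below 0 in 8 of 9 classes and was called lower in T cells only. It stood at 260 CPM in KO and 385 CPM in WT NCR-type ILC3 (log2 ratio -0.56, interval -0.74 to -0.39) and at 250 CPM in KO and 291 CPM in WT ILC2 (-0.22, interval -0.35 to -0.09). The share of all genes with intervals below 0 was not counted, and the classes come from the same pair of libraries. H2-T23 encodes Qa-1, a ligand of the CD94/NKG2A receptor of NK cells. H2-Q7 was 959 CPM in KO and 1175 CPM in WT ILC2 (-0.29, interval -0.36 to -0.23). The H2-Q and H2-T genes have close copies and the counting could split their reads, so their values are uncertain. The remaining calls were scattered. Cd1d1, which presents lipids to NKT cells, was higher in ILC2 and lower in CCR6-type ILC3, H2-T22 was higher in CCR6-type ILC3 and macrophages, H2-Q4 in CCR6-type ILC3, and H2-M3 in ILC3 of neither type and plasma cells. H2-Q7 and H2-Q10 were lower in T cells. Mr1, which presents vitamin metabolites, was higher in ILC3 as a whole. Among regulators and activators, Rfx5 was higher in T cells, Rfxap in ILC1/NK cells, Irf2 in dendritic cells and Psme3 in plasma cells, while Ifngr1 was lower in plasma cells.

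**Figure D4:**
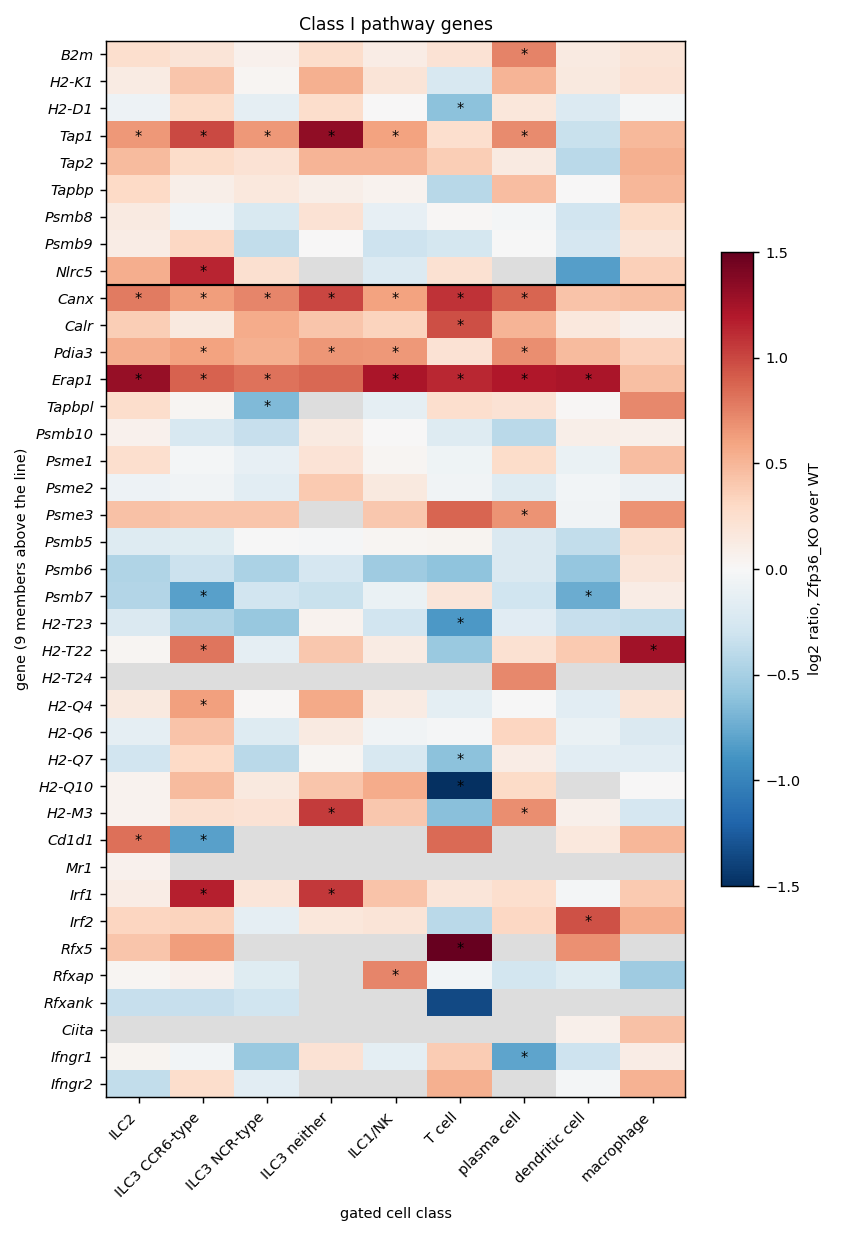
Log2 ratio of KO over WT (colour, from -1.5 in blue to 1.5 in red, values beyond shown at the end colour) of the 9 members, above the black line, and 30 further genes of the class I route in 9 gated cell classes. Stars mark genes called higher or lower and grey cells fewer than 50 UMIs, and the rows of Erap1 and Canx are each starred in 7 of 9 classes.

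Cells were also split within a library by whether they held an Irf1 UMI after thinning to 2000 UMIs. For the 8 members other than Nlrc5, summed, the log2 ratio of cells with Irf1 over cells without was 0.02 (interval -0.02 to 0.07) in KO ILC3 (305 and 606 cells) and 0.00 (-0.06 to 0.06) in WT ILC3 (143 and 571 cells). In ILC2 the interval of this sum included 0 in both libraries. The sum lay above 0 in WT T cells, at 0.15 (0.11 to 0.19, 301 and 733 cells), and in WT ILC1/NK cells, at 0.12 (0.01 to 0.22). In KO it was 0.09 (-0.01 to 0.19) in ILC1/NK cells, 0.14 (-0.05 to 0.33) in dendritic cells and -0.07 (-0.20 to 0.07) in macrophages. Tap1 alone had a ratio of 0.46 (0.05 to 0.86) in KO ILC3 and 0.35 (-0.39 to 1.05) in WT ILC3. Each subset was thinned anew, so the cells with Irf1 in the subsets are not a division of those in ILC3 as a whole. By subset, the Tap1 ratio was 0.83 (0.22 to 1.44) in KO and -0.02 (-1.24 to 1.05) in WT CCR6-type cells, and 0.18 (-0.60 to 0.91) in KO and 0.19 (-1.07 to 1.30) in WT NCR-type cells. In ILC2 it was 0.04 (-0.40 to 0.47) in KO and 0.42 (-0.45 to 1.21) in WT. Among these 8 Tap1 ratios the intervals of KO ILC3 and of its CCR6-type cells lay above 0 and the others included it. In KO CCR6-type cells both genes also differed between cells of different mice. There the log2 ratio of male-type over female-type cells was 0.45 (0.04 to 0.85) for Irf1 and 0.64 (0.11 to 1.15) for Tap1. The part of this mix of mice in the KO ratios was not tested, and cells are not replicates.

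The same split by Nlrc5 compared the summed UMIs of the other 8 members. In KO ILC3 they averaged 21.97 UMIs in 61 cells with an Nlrc5 UMI and 20.02 UMIs in 850 cells without (log2 ratio 0.13, interval 0.05 to 0.21). In WT ILC3 they averaged 20.1 UMIs in 26 cells with Nlrc5 and 17.7 UMIs in 688 cells without (0.19, interval 0.06 to 0.31). After thinning, 8.19% of WT NCR-type and 1.73% of WT CCR6-type cells held an Nlrc5 UMI. In WT, NCR-type cells also had the higher heavy chain levels, and the part of the subsets in the WT ILC3 ratio was not tested. Within subsets, again thinned anew, the ratio of cells with Nlrc5 over cells without was 0.26 (0.14 to 0.37) in KO CCR6-type cells, from 26 cells with Nlrc5. It was 0.03 (-0.09 to 0.16) in KO and 0.12 (-0.02 to 0.25) in WT NCR-type cells. WT CCR6-type cells with Nlrc5 were under the minimum of 20 cells. In ILC2 the interval included 0 in both libraries, at 0.04 (-0.04 to 0.12) in KO and 0.05 (-0.08 to 0.17) in WT. In WT T cells the ratio was 0.09 (0.03 to 0.15), from 114 cells with Nlrc5 and 920 without. Cells of a library share its depth and its pool of mice.

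Genes outside the set were ranked by how closely their level followed the mean standardised log2(CPM + 10) of the 9 members over 18 class-by-library sums. Of 11245 genes, the closest included Rab8b (Pearson r 0.97), Ppp6r1 (0.96) and Stat3 (0.95), followed by Pcbp2, Stk4, Was, Laptm5, Ppp2r5c and Ptbp3 (0.94 to 0.95). The points share 2 libraries and their depths, and the low plasma cell sums weigh on every gene, so the ranking is a description. Among the members themselves r with that mean ran from 0.52 for Tapbp to 0.90 for Tap2.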

How the data were processed

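The submitters' processing notes name Cell Ranger and mm10, the file headers give software version 3.1.0, and the authors deposited raw UMI counts per gene and barcode, with no normalization; the annotation they used is not given in the sources used here. Kept barcodes had at least 500 genes, at most 10% mitochondrial UMIs and no doublet call from Scrublet (scanpy 1.11.5). Total counts were 27733804 UMIs in KO and 24721524 in WT. Cells were gated by marker UMIs, and summed counts per class and library gave CPM with exact Poisson intervals and log2 ratios with exact Clopper-Pearson intervals from the split of UMIs, checked on simulated data. Shares were compared after thinning each cell to 2000 UMIs. Classes needed 20 cells in each library. All 9 members are named in every class, and the other 30 genes are given by counts with those called named. Some genes are not reported here. Members, gene lists and markers were chosen with earlier results of these data known. Identifiers of 30934 of 31053 features matched GENCODE M21. Of 13 alternatives (other gates, graph clusters, filters, scalings, female-type cells, thinning), 2 were chosen after seeing the data.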

Additional observations from a re-analysis of the deposited data

Results flagged for a closer look

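In 5 genes the ratio of KO over WT pointed in opposite directions in different classes, with intervals on both sides of 0. The differences between classes were not tested. H2-K1 had a log2 ratio of 0.53 in ILC3 of neither type and -0.24 in T cells. H2-D1 had 0.27 in CCR6-type ILC3 and -0.61 in T cells. Both T cell values rest on 24 KO cells. Tap2 had 0.53 in macrophages and -0.41 in dendritic cells, and Psmb8 had 0.28 in macrophages and -0.29 in dendritic cells. Both comparisons rest on 44 WT macrophages and 21 WT dendritic cells. Psmb9 had 0.31 in CCR6-type ILC3 and -0.37 in NCR-type ILC3.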

How the results depend on the processing

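Of 1107 log2 ratios of members recomputed under alternatives, 1007 stayed within counting error of the reported value, 100 moved and 0 of the called ones changed sign. Some ratios that were not called did change sign. H2-K1 kept its sign in 9 of 13 alternatives in NCR-type ILC3 (-0.11 to 0.05) and in 12 of 13 in ILC2 (-0.06 to 0.19). Others that were not called kept their sign throughout, such as B2m in ILC2 (0.07 to 0.31). For Tap1 the ratio ran over the alternatives from 0.48 to 0.76 in ILC2, 0.71 to 0.997 in CCR6-type ILC3, 0.44 to 0.78 in NCR-type ILC3, 1.16 to 1.58 in ILC3 of neither type, 0.34 to 0.73 in ILC1/NK cells and 0.42 to 0.94 in plasma cells. In macrophages, where Tap1 was not called, it ran from 0.36 to 0.60. It changed sign in T cells (-0.12 to 0.79) and in dendritic cells (-0.59 to 0.06). The number of members called higher moved as follows. In ILC2 (1 reported) it was 2 with graph clusters, with all barcodes, after thinning and without the top 8% of doublet scores, and 0 when centred on the median of all genes, without ribosomal and mitochondrial genes, and in female-type cells. In ILC3 (2 reported) it was 1 with graph clusters and when centred, and in CCR6-type ILC3 (2) it was 1 at a minimum of 200 UMIs and after thinning. In NCR-type ILC3 (1) it was 0 with graph clusters, when centred and in female-type cells. In ILC3 of neither type (1) it was 2 with graph clusters and after thinning and 0 at 200 UMIs. In ILC1/NK cells (1) it was 0 with a lead of 1 marker, when centred, without ribosomal and mitochondrial genes and without the richest 5% of cells, and 2 in female-type cells. In plasma cells (2) it was 1 with graph clusters and after thinning, and 0 when centred and without immunoglobulin genes. In macrophages (0) it was 1 without the richest 5% of cells and without the top 8% of doublet scores. The call lower in T cells (1) became 0 with a lead of 1 marker, with graph clusters, with equal weight per cell, without the richest 5% and after thinning. The causes were not tested. Dendritic cells without the richest 5% (19 WT cells) or the top 8% of doublet scores (7 WT cells) were too few to recompute, and members under the UMI minimum gave no value.

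No paired analysis was possible because each genotype has 1 pooled library. Leaving out a replicate was not possible for the same reason. No interval here holds any variation between animals or pools. Depth limits Nlrc5 in all classes, dendritic cells through 21 WT cells and T cells through 24 KO cells. Free RNA could not be measured, since the tables list called cells.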
